A study of Mus musculus with 12 samples.

Results

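Hormad1, Sycp3, Ddx4, Mael, Stk31, Tex101 and Dpep3 are mouse genes best known from germ cells that have entered meiosis or make piRNAs, stages later than the primordial germ cell. They were chosen by name, and all 7 were found among the 12955 genes of the expression table. Their transcripts were measured by polyA-enriched RNA sequencing in PGCLCs (primordial germ cell-like cells), a culture model of the embryo's first germ cells. The PGCLCs were derived from J1 male embryonic stem cells and sorted from embryoid bodies with antibodies to CD61 and SSEA1. The 12 libraries form 6 groups of 2: day 6 OE, day 6 EV, day 2 OE, day 2 EV, and day 2 cells exposed for 2 days either to dTAG13 or to DMSO. The series title names the gene Tex10, and what the letters OE and EV stand for is not written out. The small molecule dTAG13 recruits suitably tagged proteins for degradation, and DMSO is its solvent. The labels describe neither the tagged allele nor the construct behind OE, so it is not known from them whether these lines are single clones or whether the OE and EV cells carry a tag. They also do not say that the 2 libraries of a group came from separate cultures, so the p-values below measure only the spread between these libraries.

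In meiosis, chromosomes are folded along a protein axis that the synaptonemal complex joins pairwise, and HORMAD1 and SYCP3 are parts of that axis. piRNAs are small RNAs that guide PIWI proteins against transposons in germ cells, and DDX4, MAEL and STK31 belong to the protein machinery of germ granules around them. TEX101 and DPEP3 are GPI-anchored proteins of the testicular germ cell surface that bind each other. In mouse embryonic stem cells and early germ cells, many genes of this kind are held at low levels by DNA methylation of CpG-rich promoters and by PRC1.6, a Polycomb complex that holds E2F6 and the E-box binding proteins MGA and MAX.

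The promoter windows of the 7 genes are described first because the known repressors of such genes act at these letters. Windows ran from 250 bases before to 50 bases after the RefSeq start (GRCm38.p6, 300 bases each), and all 7 genes had one. They were searched on both strands for the E-box CACGTG, which reads the same on either strand, and for the E2F6 motif TCCCGC, which reads GCGGGA on the other strand. These 2 motifs do not overlap in the 4 windows printed here, of Hormad1 (chr3:95559427-95559726, plus strand), Sycp3 (chr10:88459337-88459636, plus strand), Ddx4 (chr13:112652261-112652560, minus strand) and Dpep3 (chr8:105979370-105979669, minus strand). The first 3 hold both motifs and Dpep3 holds neither. Each is written 5′ to 3′ on the strand of its gene, with every match in capitals.
Hormad1: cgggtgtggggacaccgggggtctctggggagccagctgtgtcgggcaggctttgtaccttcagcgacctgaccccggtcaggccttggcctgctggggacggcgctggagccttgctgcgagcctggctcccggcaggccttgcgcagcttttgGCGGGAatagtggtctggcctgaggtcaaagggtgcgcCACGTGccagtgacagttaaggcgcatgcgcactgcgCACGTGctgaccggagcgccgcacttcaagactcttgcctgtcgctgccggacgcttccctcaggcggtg
Sycp3: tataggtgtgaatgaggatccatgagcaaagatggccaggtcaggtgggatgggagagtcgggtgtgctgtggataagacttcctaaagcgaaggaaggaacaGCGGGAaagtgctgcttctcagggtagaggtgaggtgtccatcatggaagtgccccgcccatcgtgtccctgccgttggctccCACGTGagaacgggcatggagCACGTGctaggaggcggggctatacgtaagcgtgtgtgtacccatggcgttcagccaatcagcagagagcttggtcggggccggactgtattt
Ddx4: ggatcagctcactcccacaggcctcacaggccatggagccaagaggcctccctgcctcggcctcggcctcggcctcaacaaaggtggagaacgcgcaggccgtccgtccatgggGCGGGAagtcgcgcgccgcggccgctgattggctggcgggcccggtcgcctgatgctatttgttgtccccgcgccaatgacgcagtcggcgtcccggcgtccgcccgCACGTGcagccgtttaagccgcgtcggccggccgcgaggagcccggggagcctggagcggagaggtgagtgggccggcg
Dpep3: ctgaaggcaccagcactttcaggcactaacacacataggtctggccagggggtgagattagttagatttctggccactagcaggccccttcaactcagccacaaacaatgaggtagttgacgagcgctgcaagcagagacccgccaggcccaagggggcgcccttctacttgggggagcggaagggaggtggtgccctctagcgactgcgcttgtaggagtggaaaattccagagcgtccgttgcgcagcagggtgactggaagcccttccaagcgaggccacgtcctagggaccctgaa

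An E-box was present in 5 of the 7 windows (71.4%), against 7.24% of 27025 mouse promoter windows and 10.6% of the 9827 windows of genes in the expression table. The E2F6 motif was present in 4 of 7 (57.1%), against 20% and 36.5%. Both together were present in 4 of 7 (57.1%), against 2.05% and 4.06%. Hormad1 had 2 E-boxes, beginning 57 and 20 bases before the start, and Sycp3 had 2, beginning 64 and 43 bases before it. Ddx4 had its E-box 29 bases before the start, Stk31 55 and Mael 223. The windows of Tex101 and Dpep3, both genes of the GPI-anchored pair, held neither motif. Windows held 12 (Dpep3) to 38 (Ddx4) CG dinucleotides, with a median of 24, against medians of 7 in all windows and 21 in those of genes in the table. These matches describe letters only. Binding and DNA methylation were not measured in the data used here, and the distances depend on the annotated start. The RefSeq start lies inside the longer gene span of GENCODE by 4625 bases for Tex101, by 165 for Ddx4 and by 3 to 18 for Mael, Dpep3 and Sycp3, and 65 bases before it for Stk31.

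Values are FPKM, a transcript level scaled to gene length and library size, as deposited by the authors with 1 added, which was subtracted. Depth per library is unknown, so the precision of low values is unknown too. In a bulk sample, fewer cells of a type and less RNA per cell cannot be told apart. Tex10, the check of the labels, read 259 and 269 FPKM in day 6 OE, against 65.7 and 81.5 in day 6 EV. At day 2 the OE libraries read 403 and 378 and the EV libraries 119 and 145. With dTAG13 Tex10 read 45.2 and 36.5, against 61.7 and 56.8 with DMSO. As dTAG13 acts on protein, these transcript values do not show whether TEX10 protein was lost. dTAG13 replicate 1 stands apart from every other library: 2008 genes (15.5%) are listed at 0 there, against 18 to 127 (0.14% to 0.98%) in the others. The dTAG13 replicates differed with an SD of 0.93 over genes on the log2 scale, against 0.20 to 0.29 in the other groups. That library also enters the spread shared by all comparisons, so counts of changed genes are given with and without it. In the dTAG13 comparison leaving it out leaves 1 dTAG13 library. There log2 changes are given without p-values, and genes marked as passing are not read as changed. Among 12 germ cell specification genes 11 were in the table, with summed levels of 344 to 548 FPKM over the 12 libraries. Itgb3, the gene of the sorting marker CD61, was among them and was listed at 0 in dTAG13 replicate 1. Of 6 somatic gonad markers only Gata4 was in the table.

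**Figure D1:**
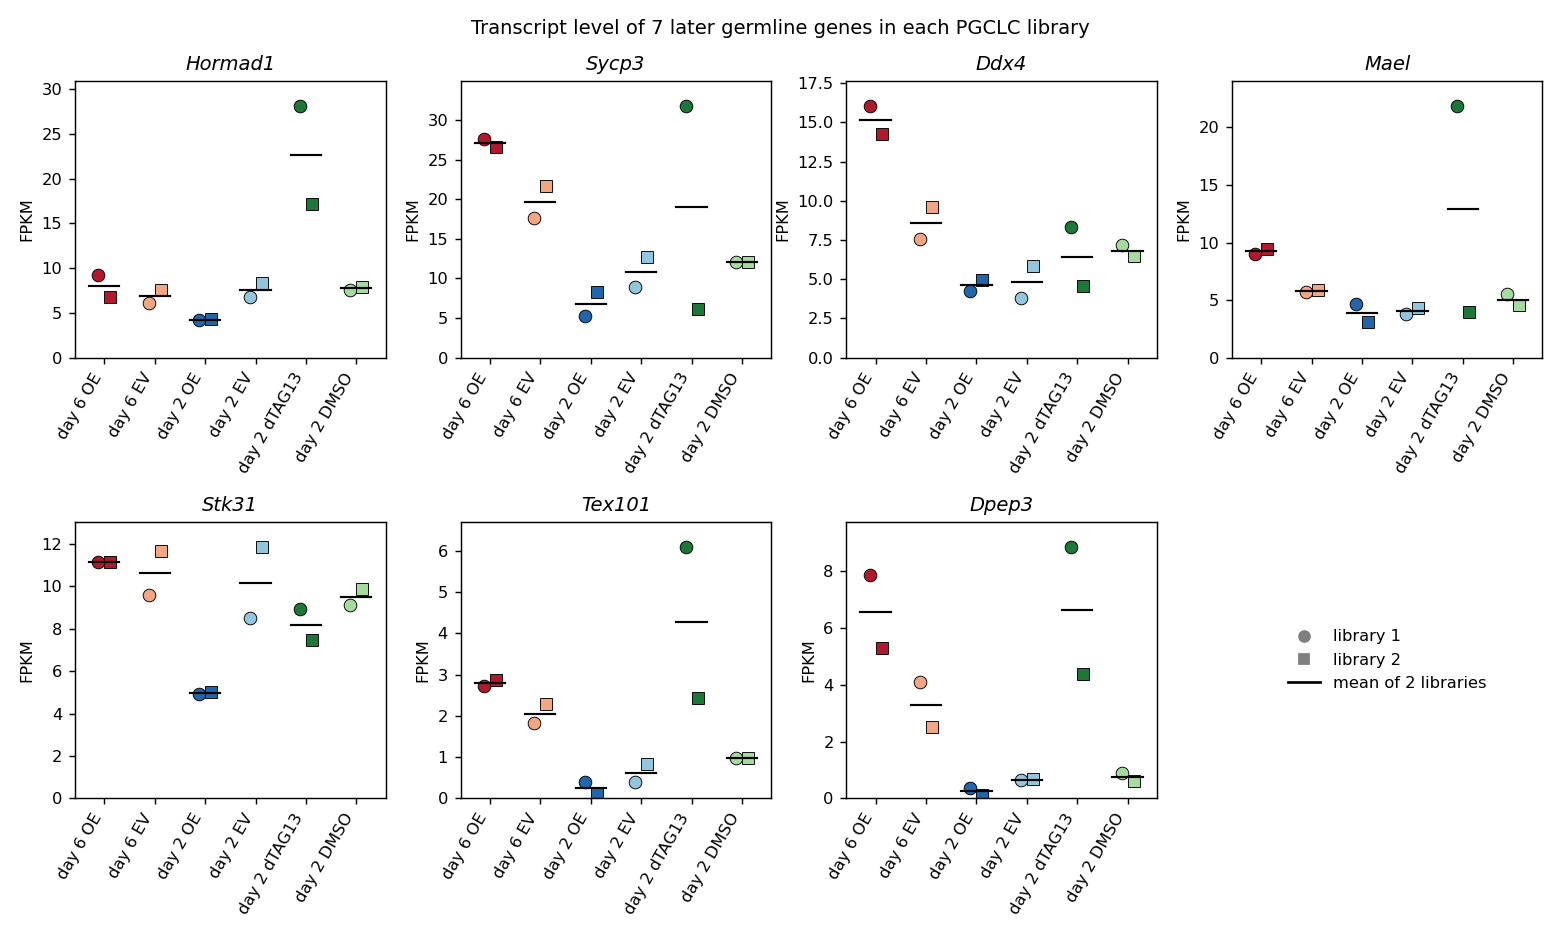
Transcript level (FPKM, linear axis from 0) of the 7 genes in each library, with circles for replicate 1, squares for replicate 2 and a bar for the mean of 2. Day 2 OE has the lowest group mean for all 7 genes, and dTAG13 replicate 1 holds the highest value of 5 of them.

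Hormad1 (chromosome 3, 95559677 to 95587671, plus strand, mm10) encodes a HORMA domain protein of unsynapsed axes that promotes meiotic DNA breaks. It read 9.21 and 6.82 FPKM in day 6 OE and 6.12 and 7.59 in day 6 EV. It read 4.16 and 4.31 in day 2 OE and 6.78 and 8.32 in day 2 EV. It read 28.1 and 17.1 with dTAG13 and 7.60 and 7.88 with DMSO. Both dTAG13 libraries therefore lay above all 10 others, both day 2 OE libraries lay below all others, and the remaining 4 groups overlapped their neighbours in the order of levels.

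Sycp3 (chromosome 10, 88459569 to 88473236, plus strand) encodes the lateral element protein of the synaptonemal complex. It had the highest mean of the 7 genes over the 12 libraries, 15.9 FPKM. It read 27.6 and 26.5 FPKM in day 6 OE and 17.7 and 21.6 in day 6 EV. Day 2 OE read 5.30 and 8.30, against 8.97 and 12.7 in day 2 EV. The day 6 groups separated from the day 2 OE and EV groups, and OE lay above EV at day 6 and below it at day 2. With dTAG13 it read 31.7 and 6.21, on either side of 12.08 and 12.04 with DMSO. The whole of Sycp3 lies inside Chpt1, a phospholipid synthesis gene on the opposite strand. Whether counting used strand is not stated, and Chpt1 read 6.92 in dTAG13 replicate 1, against 0.36 to 1.98 in the 11 others. How much of the Sycp3 value in that library is shared with Chpt1 was not tested.

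Ddx4 (chromosome 13, 112598333 to 112652475, minus strand), also called Vasa, encodes an RNA helicase that marks germ granules. It read 16.0 and 14.3 FPKM in day 6 OE and 7.56 and 9.60 in day 6 EV. It read 4.27 and 4.94 in day 2 OE and 3.80 and 5.87 in day 2 EV. It read 8.32 and 4.56 with dTAG13 and 7.18 and 6.48 with DMSO. Day 6 OE thus stood clear of every other group. Day 6 EV had the next highest mean, with dTAG13 replicate 1 inside its range, and each of the 4 day 2 groups overlapped its neighbour in the order of levels.

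Mael (chromosome 1, 166201201 to 166238747, minus strand), the mouse maelstrom gene, acts in transposon silencing in germ granules. It read 9.01 and 9.45 FPKM in day 6 OE and 5.71 and 5.86 in day 6 EV. Day 2 OE read 4.65 and 3.08, against 3.77 and 4.31 in day 2 EV. The day 6 groups stood apart from each other and above day 2 OE and EV, which overlapped. With dTAG13 Mael read 21.8 in replicate 1 and 3.99 in replicate 2, and it read 5.51 and 4.55 with DMSO. The first value is the highest of the 12 libraries and the second lies below both DMSO libraries.

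Stk31 (chromosome 6, 49395604 to 49469501, plus strand) encodes a Tudor domain protein with a kinase-like part. It read 11.1 and 11.2 FPKM in day 6 OE and 9.59 and 11.7 in day 6 EV. It read 4.94 and 5.04 in day 2 OE and 8.50 and 11.9 in day 2 EV, and 8.91 and 7.47 with dTAG13 and 9.10 and 9.87 with DMSO. The libraries of 5 groups lay between 7.47 and 11.9 FPKM, and the 2 libraries of day 2 OE lay below them all. Its span holds a pseudogene on the other strand, Gm17060, which is not in the table.

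Tex101 (chromosome 7, 24668007 to 24676675, minus strand) encodes a sperm maturation protein of the germ cell surface. It read 2.73 and 2.87 FPKM in day 6 OE and 1.83 and 2.28 in day 6 EV. It read 0.40 and 0.13 in day 2 OE and 0.41 and 0.83 in day 2 EV, and 6.10 and 2.44 with dTAG13 and 0.99 and 0.97 with DMSO. Its levels reached 1 FPKM in the day 6 and dTAG13 libraries and in none of the other 6, and its order from day 6 OE through day 6 EV, DMSO and day 2 EV to day 2 OE had no overlap between neighbours.

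Dpep3 (chromosome 8, 105973513 to 105979429, minus strand) encodes a member of the membrane dipeptidase family found in testis. It read 7.85 and 5.27 FPKM in day 6 OE and 4.09 and 2.50 in day 6 EV. It read 0.37 and 0.12 in day 2 OE and 0.64 and 0.68 in day 2 EV, and 8.84 and 4.38 with dTAG13 and 0.88 and 0.61 with DMSO. As with Tex101, the 6 libraries of day 6 and dTAG13 were the ones at 1 FPKM or more. Tex101 and Dpep3 passed the filter on low values, FPKM of at least 1 in 2 libraries, only through those libraries, while the other 5 genes passed it in all 12. An unmeasured lincRNA, Gm45752, covers all of Dpep3 on the opposite strand.

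Changes were tested with limma on log2(FPKM + 1) over 12059 genes in a single model of all 12 libraries, and an adjusted p (Benjamini-Hochberg) below 0.05 counts as a change. This scale understates changes of low genes such as Tex101 and Dpep3. The OE comparisons at both days, the comparisons of day 6 with day 2 and the difference of OE effects are made of the same 8 libraries and are not independent of each other.

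Between day 6 and day 2 of OE cells, Dpep3, Sycp3, Tex101, Ddx4, Stk31 and Hormad1 rose. Of the 5 genes that were at 1 FPKM or more in all 12 libraries 4 rose, against 17.5% of all genes tested. Dpep3 and Tex101 passed the filter only through the day 6 and dTAG13 libraries, so their calls are not read against the share of all genes, here or in the other comparisons. Dpep3 averaged 6.56 ± 1.82 FPKM in day 6 OE and 0.24 ± 0.17 in day 2 OE (SD, n = 2 each), a log2 change of 2.59 (SE 0.32, adjusted p = 0.000304). Sycp3 averaged 27.1 ± 0.73 in day 6 OE and 6.80 ± 2.12 in day 2 OE, a log2 change of 1.87 (SE 0.54, adjusted p = 0.0244). Of the 3 germ granule genes 2 rose, Ddx4 by 1.53 (SE 0.28, adjusted p = 0.00259) and Stk31 by 1.02 (SE 0.20, adjusted p = 0.00398). Tex101 rose by 1.59 (SE 0.31, adjusted p = 0.00375) and Hormad1 by 0.77 (SE 0.25, adjusted p = 0.0402). Mael stood at 1.09 (SE 0.54, adjusted p = 0.150) and passed without dTAG13 replicate 1 (adjusted p = 9.38e-05), when 5 of those 5 genes rose, against 33.2% of genes. The day 6 libraries lay above the day 2 libraries for 5 of 5 as well, as they did for 46% of all genes, and for Dpep3 and Tex101. Leaving out any of the 4 libraries compared ended the calls of Hormad1 (adjusted p 0.0724 to 0.246) and Sycp3 (0.0584 to 0.159), and a replicate block ended that of Hormad1 (adjusted p = 0.0534).

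In EV cells the same interval gave a change of Dpep3 alone, and 0 of the 5 genes at 1 FPKM or more in all libraries rose, against 13.3% of all genes. Dpep3 averaged 3.30 ± 1.12 FPKM in day 6 EV and 0.66 ± 0.03 in day 2 EV (SD, n = 2 each), a log2 change of 1.35 (SE 0.32, adjusted p = 0.0136). That call ended without D6_EV replicate 1 (adjusted p = 0.126), D2_EV replicate 1 (0.0776) or D2_EV replicate 2 (0.0685). Tex101 stood at 0.92 (adjusted p = 0.0574), Sycp3 at 0.82 (0.311), Ddx4 at 0.73 (0.0849) and Mael at 0.43 (0.612), all of them with both day 6 libraries above both day 2 libraries. That separation held for 3 of the 5 genes at 1 FPKM or more in all libraries, and for 39.9% of all genes. Hormad1, at -0.12, and Stk31, at 0.07, had overlapping libraries, so these differed by less than the spread between replicates. Without dTAG13 replicate 1, Sycp3 (adjusted p = 0.00276), Ddx4 (0.00386) and Mael (0.0418) rose, 3 of those 5, against 29.4% of genes. Dpep3 (0.000141) and Tex101 (0.000492) passed too.

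Related genes were counted on lists drawn from textbook knowledge, from which members are not left out. Of all genes, 17.5% rose and 14.7% fell in OE and 13.3% rose and 10.5% fell in EV, or 33.2% and 25.7% in OE and 29.4% and 22.7% in EV without dTAG13 replicate 1. Of 14 tested synaptonemal complex and cohesin genes, 6 rose and 1 fell between day 6 and day 2 in OE, and 4 rose and 1 fell in EV, or 10 and 1 in OE and 8 and 1 in EV without that library. The risers included Tex12, a central element gene, by 1.96 in OE and 1.43 in EV, the cohesin gene Smc1b, by 1.51 and 1.33, and the cohesin gene Stag3, by 1.43 and 0.88. The faller was Trip13, which removes HORMAD proteins from axes, by -0.85 and -0.47. Of 15 tested genes of meiotic entry and recombination, 7 rose and 1 fell in OE, and 2 rose and 1 fell in EV, or 8 and 3 in OE and 5 and 5 in EV without it. The 2 of 15 that rose in EV are the same share as among all genes. Stra8, the retinoic acid target needed for meiotic entry, read 147 and 134 FPKM in day 6 OE and 5.89 and 7.29 in day 2 OE, and 62.3 and 40.5 in day 6 EV and 7.56 and 6.49 in day 2 EV. Its log2 changes were 4.22 in OE (adjusted p = 1.4e-05) and 2.68 in EV (adjusted p = 0.00024). Rec114, a DNA break factor gene, rose by 2.00 and 1.71 and Gm1564, the symbol for Meioc in the table, rose by 2.35 in OE, while Mnd1, a strand exchange gene, fell, at -0.43 in OE and -0.55 in EV.

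Of 21 tested piRNA and germ granule genes, 9 rose and 2 fell in OE between the days, and 4 rose and 2 fell in EV, or 14 and 4 in OE and 11 and 7 in EV without dTAG13 replicate 1. In OE the largest rises outside the 7 genes were those of Dazl, an RNA-binding germ cell gene, by 3.05, of Gpat2, by 2.25, and of Mov10l1, a piRNA helicase gene, by 1.99. In EV they were those of Gtsf1, a PIWI partner gene, by 2.56, of Gpat2, by 1.54, and of Tdrd7, by 1.07. Tdrd12, a Tudor domain helicase gene, went the other way in both: 9.62 and 6.67 FPKM in day 6 OE and 50.3 and 43.9 in day 2 OE, a log2 change of -2.41, and -2.69 in EV. Pnldc1, which trims piRNAs, fell in OE (-0.84) and Henmt1, which methylates them, in EV (-0.82). The list of surface genes had 3 of 13 members in the table, and Ly6k, a partner of TEX101, rose by 2.65 in OE and 2.52 in EV. Of 14 PRC1.6 genes, 1 rose (Yaf2) and 4 fell in OE between the days, and 0 rose and 4 fell in EV, among them the E2F partner gene Tfdp1, at -0.96 in OE and -1.44 in EV. Leaving out dTAG13 replicate 1 gave 2 that rose and 6 that fell in OE and 1 and 8 in EV. Of 10 methylation genes, 5 fell in OE and 4 in EV, with Dnmt3b at -2.66 and -1.63, or 8 in each without that library, when 1 rose in each. In OE the medians were 0.69 for the synaptonemal list, 0.92 for entry and recombination and 0.98 for the piRNA list, against 1.09 for the 5 genes at 1 FPKM or more in all libraries and 0.08 for all genes. In EV they were 0.54, 0.09 and 0.43, against 0.43 for those 5 genes and 0.04 for all genes. Markers of other cells also differed between the days: the 5 of 8 2-cell-like markers in the table summed to 34.2 to 36.2 FPKM in day 6 OE and 69.7 to 79.6 in day 6 EV, against 11.3 to 13.9 in day 2 OE and 14.4 to 16.4 in day 2 EV. Gata4 and Gata6, the 2 of 7 endoderm markers in the table, summed to 4.68 to 6.39 in day 6 OE and 4.19 to 4.69 in day 6 EV, against 0.76 to 1.23 in day 2 OE and 1.07 to 1.08 in day 2 EV. Of 3 endothelial and blood markers in the table Pecam1, which pluripotent and germ cells also express, rose by 1.63 in OE and 1.06 in EV, while Tek (0.08 in OE and -0.24 in EV) and Gata1 (-0.06 and 0.46) did not pass. The germ cell specification genes summed to 531 to 543 in day 6 OE and 348 to 397 in day 6 EV, against 344 to 403 in day 2 OE and 462 to 477 in day 2 EV. Genes of that list went both ways in OE between the days. Kit (1.89), Itgb3 (1.37), Prdm14 (0.88) and Alpl (0.76) stood above 0, and Rhox6 (-2.26), Nanos3 (-1.82), Rhox9 (-1.49) and Dppa3 (-0.82) below it. The 3 of 5 neural markers summed to 48.5 to 50.6 in day 6 OE and 66.8 to 70.0 in day 6 EV, against 123 to 129 in day 2 OE and 91.9 to 105 in day 2 EV. Of these, Tubb3 stood at -1.42 in OE and -0.55 in EV and Pax6 at -0.80 and -0.39, while Nes stood at 0.62 and 0.52. The endoderm markers Sox17 and Foxa2 and the blood markers Ptprc and Tal1 were not in the table, and the part of such cells in the results was not tested.

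**Figure D2:**
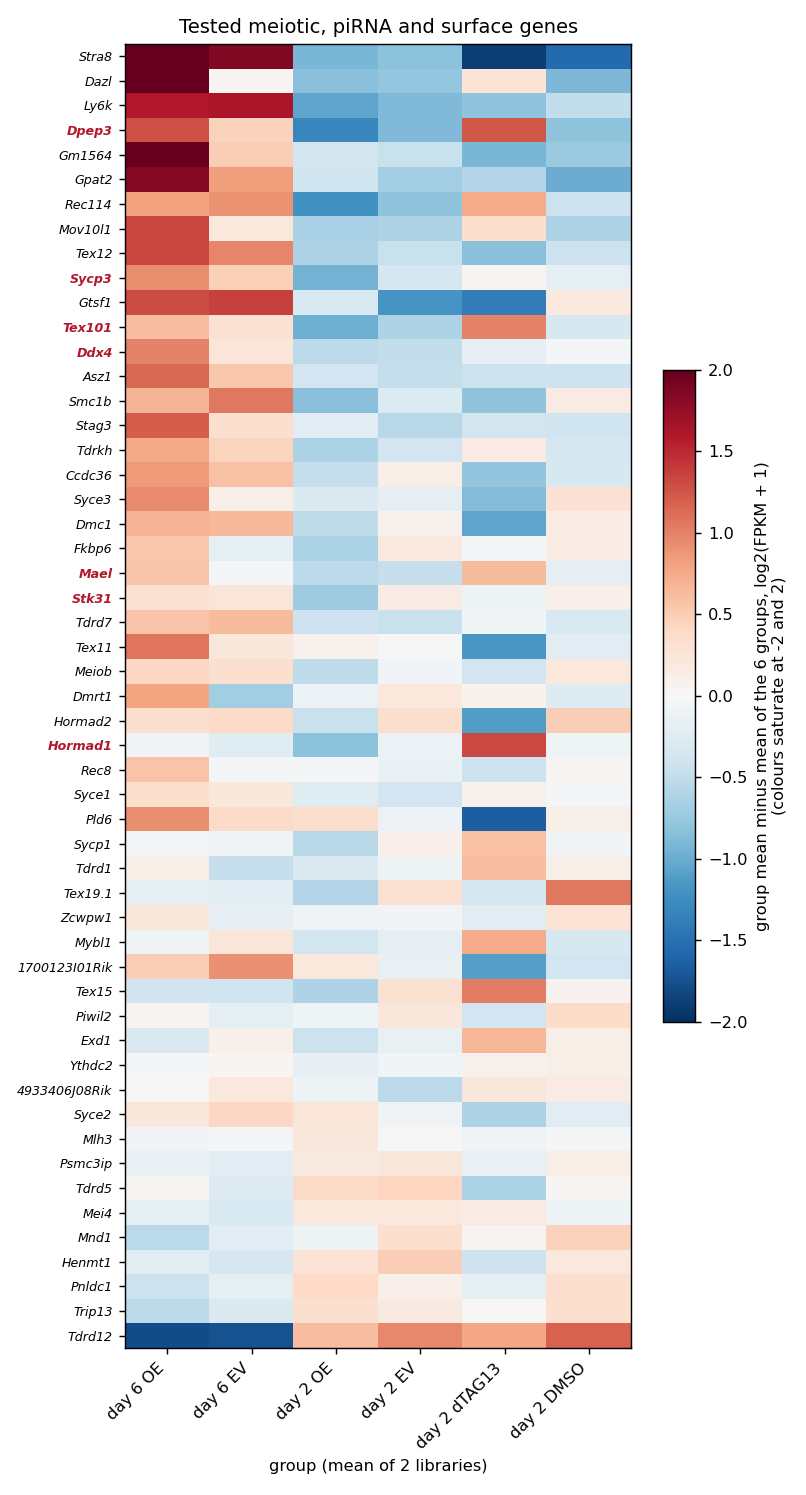
Group means of log2(FPKM + 1), minus the mean of the 6 groups, for 53 tested genes of the meiotic, piRNA and surface lists, ordered by day 6 OE minus day 2 OE, with the 7 genes in red bold. The order runs from Stra8 at the top to Tdrd12 at the bottom.

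The OE comparison at day 6 asks whether the genes differ where Tex10 transcript is raised. None of the 7 passed. Of the 5 genes at 1 FPKM or more in all libraries 0 passed, against 3.72% of all genes, and 18% of all genes had an unadjusted p below 0.05. All 7 differences were positive. How many of all genes had a difference of the same sign was not counted, here or in the other OE comparisons. Dpep3 stood at 0.82 (SE 0.32, adjusted p = 0.210), Ddx4 at 0.76 (SE 0.28, adjusted p = 0.180) and Mael at 0.59 (SE 0.54, adjusted p = 0.630). Sycp3 stood at 0.45, Tex101 at 0.32, Hormad1 at 0.19 and Stk31 at 0.07. OE libraries lay wholly above EV libraries for Sycp3, Ddx4 and Mael, 3 of those 5 genes, as they did for 39.3% of all genes. They did so for Dpep3 and Tex101 too, while Hormad1 and Stk31 overlapped. Without dTAG13 replicate 1, a library of neither group, the changes are the same and the pooled spread is smaller. Then Ddx4 (adjusted p = 0.00758) and Mael (0.0197) rose, 2 of those 5, against 14.3% of genes, and Dpep3 (0.0116) passed too. Ddx4 averaged 15.1 ± 1.24 FPKM in day 6 OE and 8.58 ± 1.44 in day 6 EV (SD, n = 2 each).

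Among related genes at day 6, Stra8 rose in OE by 1.46 (adjusted p = 0.0197), Gm1564 by 1.49 (0.0490) and Dmrt1, a germ cell transcription factor gene, by 1.49 (0.0414), which is 3 of 15 tested genes of meiotic entry and recombination. Dazl, at 31.7 and 22.8 FPKM in day 6 OE and 4.82 and 5.53 in day 6 EV, rose by 2.18 (adjusted p = 0.0326) and was 1 of 21 on the piRNA list. Stag3 rose by 0.88 (adjusted p = 0.0276) and was 1 of 14 on the synaptonemal list. No gene of these 3 lists fell, and among all genes 1.92% rose and 1.79% fell. In the fit without dTAG13 replicate 1, against 14.3% and 11% of genes, 5 recombination genes rose and 1 fell (Mnd1, at -0.33, adjusted p = 0.0243), 9 piRNA genes rose and 3 synaptonemal genes rose. Of 14 genes of the PRC1.6 complex, E2f6 rose by 1.04 (adjusted p = 0.0200) and L3mbtl2 fell, at -0.59 (adjusted p = 0.0325), or 5 rose and 1 fell without dTAG13 replicate 1. Of 10 genes of DNA and H3K9 methylation, Dnmt3l fell, at -1.74 (adjusted p = 0.00106), and Dnmt3b fell, at -0.90 (adjusted p = 0.00712), or 1 rose and 3 fell without that library. Dnmt3b read 13.0 and 11.6 FPKM in day 6 OE and 22.9 and 24.8 in day 6 EV. The median was 0.45 for the 5 genes at 1 FPKM or more in all libraries, against 0.05 for all genes. It was 0.08 for the synaptonemal list, 0.10 for entry and recombination and 0.31 for the piRNA list. Marker sums differed at day 6 too. The germ cell specification genes summed to 543 and 531 FPKM in day 6 OE and 397 and 348 in day 6 EV, and the 4 of 6 formative and primed epiblast markers, Dnmt3b among them, to 187 and 183 in day 6 OE and 287 and 356 in day 6 EV. Within the specification list Dppa3 (1.24) and Kit (1.08) rose in OE. Rhox6 (-1.21), Nanos3 (-0.99) and Rhox9 (-0.73) stood below 0 and passed only without dTAG13 replicate 1. Pecam1 read 112 and 108 in day 6 OE and 72.7 and 63.1 in day 6 EV. Their part in the results was not tested.

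At day 2 the 7 genes stood at or below EV in OE cells, and none of them passed. Of the 5 genes at 1 FPKM or more in all libraries 0 passed, against 0.846% of all genes (12.3% at an unadjusted p below 0.05). Stk31 averaged 4.99 ± 0.07 FPKM in day 2 OE and 10.2 ± 2.38 in day 2 EV (SD, n = 2 each), a log2 change of -0.88 (SE 0.20, adjusted p = 0.0883). Hormad1 averaged 4.23 ± 0.11 in day 2 OE and 7.55 ± 1.09 in day 2 EV, a log2 change of -0.70 (SE 0.25, adjusted p = 0.274). Sycp3 stood at -0.61 (adjusted p = 0.779), Dpep3 at -0.42 (0.712) and Tex101 at -0.35 (0.779), while Mael (-0.07) and Ddx4 (-0.04) had overlapping libraries. Both OE libraries lay below both EV libraries for Stk31, Hormad1 and Sycp3, 3 of those 5 genes, as they did for 22.6% of all genes. They did so for Dpep3 and Tex101 too, both below 1 FPKM there, with the nearest Tex101 libraries at 0.40 (OE) and 0.41 (EV). Without dTAG13 replicate 1, Stk31 (adjusted p = 0.00323), Hormad1 (0.0126) and Sycp3 (0.0467) fell, 3 of those 5, against 6.02% of genes. Under median-ratio scaling Stk31 alone passed (adjusted p = 0.0388). Group means in day 2 OE were the lowest of the 6 groups for each of those 5 genes, as they were for 13.6% of genes, and for Dpep3 and Tex101.

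With all libraries, no gene of the 6 lists of related genes passed for OE at day 2. When dTAG13 replicate 1, a library of neither group, was left out, 1 rose and 4 fell of 14 synaptonemal genes, 5 fell of 15 recombination genes and 1 rose and 3 fell of 21 piRNA genes, against 8.01% of all genes that rose and 6.02% that fell. Then 1 of 14 PRC1.6 genes fell and 1 of 10 methylation genes rose. The most abundant of each list are given as values. On the synaptonemal list Syce2 stood at 0.31 (adjusted p = 0.167) and Trip13 at 0.15 (0.773). Among recombination genes Mnd1 stood at -0.44 (adjusted p = 0.169) and Psmc3ip at -0.04 (0.980). On the piRNA list Tdrd12 stood at -0.33 (adjusted p = 0.711) and Tex19.1, a transposon control gene, at -0.89 (0.0893, or 0.00106 without that library), and on the surface list Ly6k stood at -0.18 (0.954). Hdac1 (0.10, adjusted p = 0.882) and L3mbtl2 (0.10, 0.872) led the PRC1.6 list, and Uhrf1 (0.36, 0.377) and Dnmt1 (-0.07, 0.912) the methylation list. The median was -0.61 for the 5 genes at 1 FPKM or more in all libraries, against 0.04 for all genes. It was -0.01 for the synaptonemal list, -0.11 for entry and recombination and -0.07 for the piRNA list.

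The difference of the OE effects, day 6 minus day 2, was positive for all 7 genes and passed for none of them. Of the 5 genes at 1 FPKM or more in all libraries 0 passed, against 0.232% of all genes (10.8% at an unadjusted p below 0.05). The difference was 1.24 for Dpep3 (SE 0.45, adjusted p = 0.334), 1.06 for Sycp3 (SE 0.76, 0.712), 0.95 for Stk31 (SE 0.28, 0.232) and 0.90 for Hormad1 (SE 0.36, 0.385). It was 0.80 for Ddx4, 0.67 for Tex101 and 0.66 for Mael. The median of those 5 genes was 0.90, against 0.01 for all genes. It was 0.52 for the synaptonemal list, 0.55 for entry and recombination and 0.57 for the piRNA list. Without dTAG13 replicate 1, Stk31 (adjusted p = 0.0169), Sycp3 (0.0249) and Hormad1 (0.0254) passed upward, 3 of those 5, against 5.56% of genes, and Dpep3 (0.0183) passed too. With all libraries Dnmt3l, at -1.74 (adjusted p = 0.0165), was the 1 related gene that passed, downward as did 0.166% of all genes. With dTAG13 replicate 1 left out, 7 of 15 recombination genes, 7 of 21 piRNA genes, 3 of 14 synaptonemal genes and 5 of 14 PRC1.6 genes passed upward. Then 1 piRNA, 2 synaptonemal, 1 PRC1.6 and 3 of 10 methylation genes passed downward, against 5.55% of all genes.

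**Figure D3:**
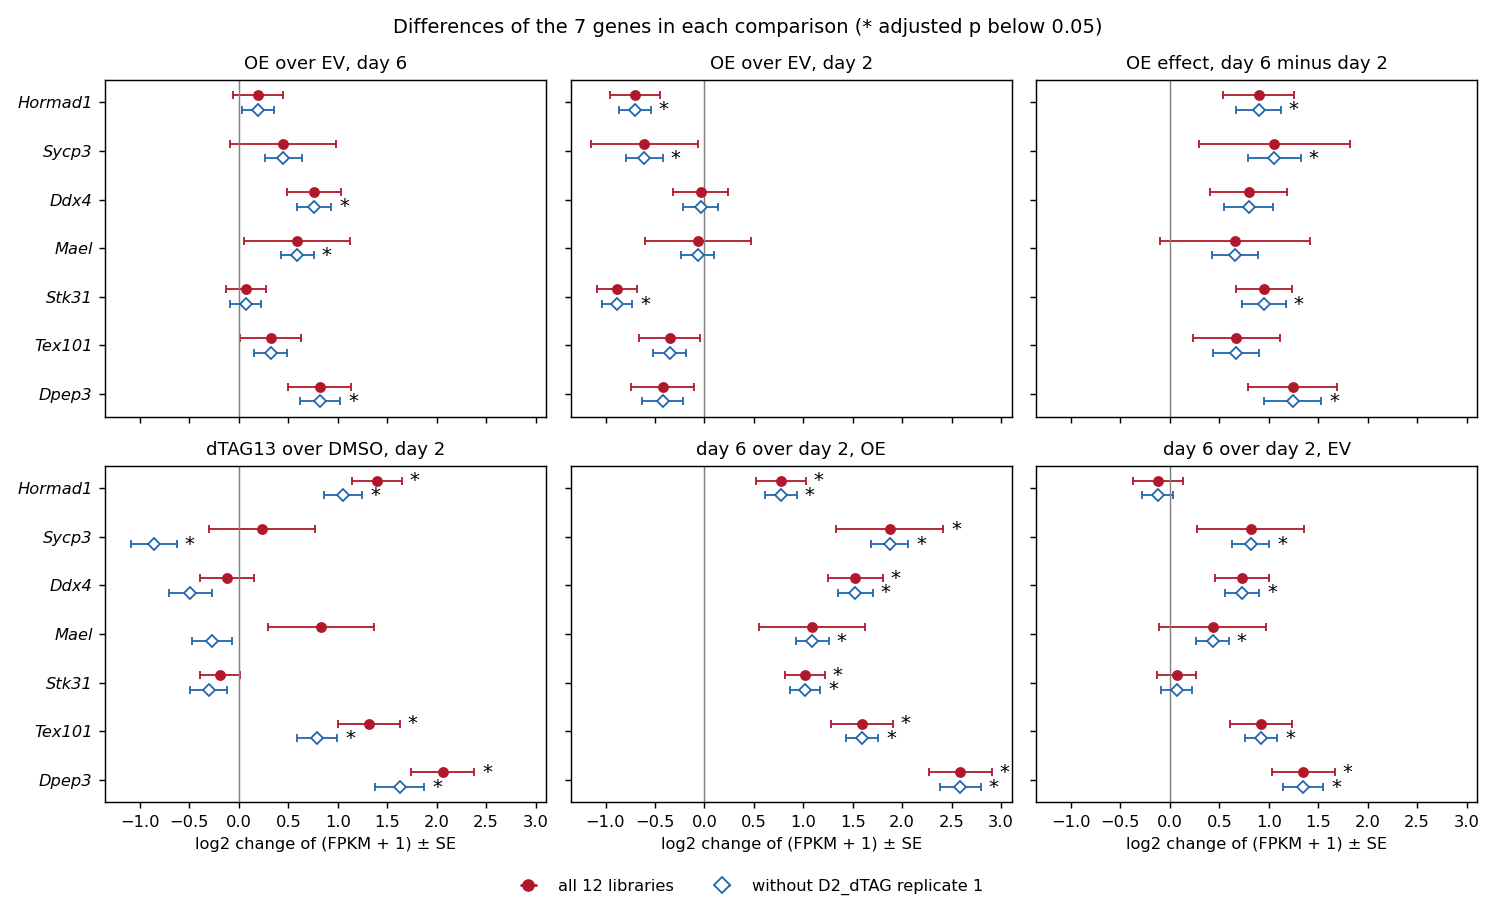
Log2 change of (FPKM + 1) with its standard error for the 7 genes in 6 comparisons, from all 12 libraries (filled circles) and without dTAG13 replicate 1 (open diamonds), with an asterisk at an adjusted p below 0.05. Outside the dTAG13 panel the 2 estimates coincide and the bars without that library are shorter, while in the dTAG13 panel the 2 estimates of Sycp3, and those of Mael, lie on opposite sides of 0. Open diamonds of the dTAG13 panel rest on 1 dTAG13 library, so their asterisks are not read as changes.

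With dTAG13, Dpep3, Hormad1 and Tex101 rose. Hormad1 was 1 of the 5 genes at 1 FPKM or more in all libraries, against 4.01% of genes that rose and 12.2% that changed either way. Dpep3 averaged 6.61 ± 3.15 FPKM with dTAG13 and 0.75 ± 0.19 with DMSO (SD, n = 2 each), a log2 change of 2.06 (SE 0.32, adjusted p = 0.0047). Hormad1 averaged 22.6 ± 7.74 with dTAG13 and 7.74 ± 0.20 with DMSO, a log2 change of 1.39 (SE 0.25, adjusted p = 0.00899). Tex101 averaged 4.27 ± 2.59 with dTAG13 and 0.98 ± 0.02 with DMSO, a log2 change of 1.32 (SE 0.31, adjusted p = 0.0263). Both dTAG13 libraries lay above both DMSO libraries for Hormad1, 1 of those 5 genes, as they did for 13.8% of genes. Dpep3 and Tex101 showed the same order of libraries. Without dTAG13 replicate 1, Dpep3 stood at 1.62, Hormad1 at 1.05 and Tex101 at 0.79. Of the 5 genes at 1 FPKM or more in all libraries, 1 (Hormad1) was marked higher in that fit, against 6.34% of genes. That fit holds 1 dTAG13 library and takes its spread from the other groups, so the mark is not read as a change. The median of all genes was -0.13, and of 1473 changed genes 483 were higher and 990 lower, or 707 and 596 under median-ratio scaling.

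These calls use the spread shared by all 6 groups. With only the dTAG13 and DMSO libraries in the fit, no gene of 12059 passed (1258 had an unadjusted p below 0.05), and the adjusted p-values of Dpep3, Hormad1 and Tex101 were 0.373, 0.376 and 0.470. Without D2_DMSO replicate 1 Hormad1 (adjusted p = 0.0806) and Tex101 (0.141) no longer passed, and without D2_DMSO replicate 2 none of the 3 did (Dpep3 0.0587, Hormad1 0.0755 and Tex101 0.140). With a pseudocount of 0.1 Tex101 stood at 1.87 (adjusted p = 0.0646).

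The other 4 genes split by library. Mael stood at 0.83 (SE 0.54, adjusted p = 0.315) and Sycp3 at 0.23 (SE 0.54, adjusted p = 0.798) with both libraries. Without dTAG13 replicate 1, Mael stood at -0.27 and Sycp3 at -0.86. Of the 5 genes at 1 FPKM or more in all libraries, 1 (Sycp3) was marked lower in that fit, against 17% of genes. With 1 dTAG13 library its spread comes from the other groups, so that mark is not read as a change. Without dTAG13 replicate 2 instead, Mael stood at 1.93 and Sycp3 at 1.33. Ddx4 stood at -0.12 (adjusted p = 0.800), or -0.49 without dTAG13 replicate 1, and Stk31 at -0.19 (0.537), or -0.31. Both dTAG13 libraries of Stk31 lay below both DMSO libraries, as they did for 34.7% of genes.

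The 2 dTAG13 libraries are set side by side for that reason. The ratio of replicate 1 to replicate 2 was 5.47 for Mael, 5.12 for Sycp3, 1.82 for Ddx4, 1.64 for Hormad1 and 1.19 for Stk31. It was 2.50 for Tex101 and 2.02 for Dpep3, which passed the filter only through the day 6 and dTAG13 libraries. How many of all tested genes were higher in replicate 1 was not counted, so this order is not read as particular to the 7 genes. Of the 52 other listed germline genes in the table, 22 were higher in replicate 1. There 15 of the 52 were listed at 0, against 15.5% of the whole table. Replicate 2 alone was 5.84 times the DMSO mean for Dpep3, 2.48 times for Tex101 and 2.22 times for Hormad1. It was 0.79 times that mean for Mael and Stk31, 0.67 times for Ddx4 and 0.51 times for Sycp3. Among the 5 genes at 1 FPKM or more in all libraries, replicate 1 held the highest value of the 12 libraries for Hormad1, Sycp3 and Mael. Replicate 1 did so for 25.1% of genes tested, and also for Dpep3 and Tex101. Without it, the highest value lay in day 6 OE for 5 genes, in day 2 EV for Stk31 and in dTAG13 replicate 2 for Hormad1.

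**Figure D4:**
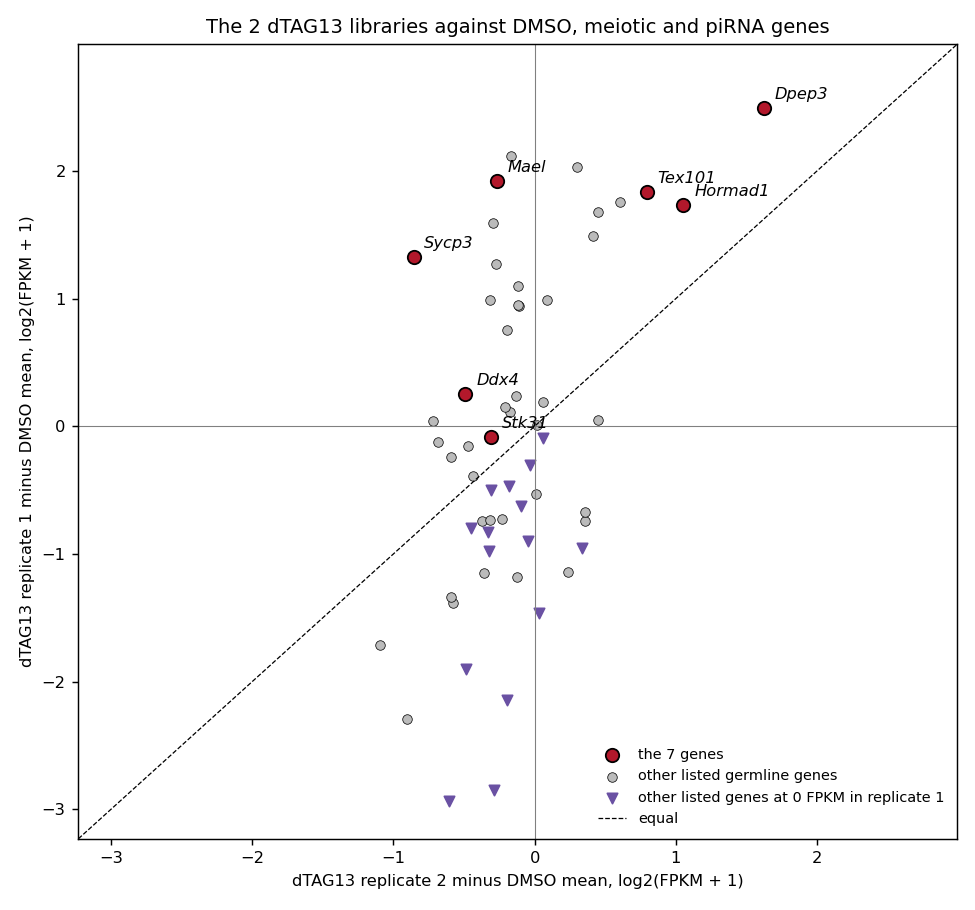
Difference from the DMSO mean on the log2(FPKM + 1) scale in dTAG13 replicate 2 (horizontal) and replicate 1 (vertical) for the 7 genes (red), 52 other listed germline genes (grey) and those of them at 0 in replicate 1 (triangles), with a dashed line of equality. Dpep3, Tex101 and Hormad1 lie above 0 on both axes, and Sycp3, Mael and Ddx4 lie above 0 in replicate 1 and below 0 in replicate 2.

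Related genes did not move as a block with dTAG13. On the synaptonemal list Hormad1 rose, while its paralogue Hormad2 fell, at 0.41 and 2.68 FPKM with dTAG13 and 6.07 and 5.74 with DMSO, a log2 change of -1.60 (adjusted p = 0.0238), or -0.91 without dTAG13 replicate 1. Syce2 fell as well, at -0.41 (adjusted p = 0.0193), against 8.21% of all genes that fell. Rec114 rose by 1.18 (adjusted p = 0.0312) and Tex11 fell, at -0.97 (0.0356), the 2 changes among 15 genes of entry and recombination. Tex19.1 was the 1 change among 21 piRNA and germ granule genes, at 18.8 and 29.6 FPKM with dTAG13 and 63.8 and 64.5 with DMSO, a log2 change of -1.40 (adjusted p = 0.00348). Of all genes, 4.01% rose and 8.21% fell with dTAG13. Of 14 PRC1.6 genes 0 changed, and of 10 methylation genes 5 fell (Ehmt1, Dnmt3b, Tet1, Ehmt2 and Uhrf1). The PRC1.6 median was -0.28 and the methylation median -0.65, or -0.45 and -0.62 without dTAG13 replicate 1. Ehmt1, an H3K9 methyltransferase gene, stood at -0.96, Dnmt3b, which methylates DNA, at -0.74, and Tet1, which oxidises methylated DNA, at -0.74. Other medians were 0.23 for the 5 genes at 1 FPKM or more in all libraries, -0.36 for the synaptonemal list, -0.26 for entry and recombination, -0.12 for the piRNA list and -0.13 for all genes. Without dTAG13 replicate 1 these were -0.31 for the 5 genes, -0.25, -0.21 and -0.27 for the 3 lists and -0.17 for all genes.

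Of the marker sums, those of epiblast, neural and mesoderm genes separated dTAG13 from DMSO. The 4 of 6 formative and primed epiblast markers, Dnmt3b among them, summed to 113 and 120 FPKM with dTAG13 and 216 and 209 with DMSO, and the 3 of 5 neural markers to 46.3 and 59.0 with dTAG13 and 79.9 and 77.8 with DMSO. Of the epiblast markers Lefty2 (-0.91) and Dnmt3b (-0.74) fell, while Otx2 stood at 0.05. The neural markers went both ways: without dTAG13 replicate 1 Pax6 stood at -0.79, Tubb3 at -0.42 and Nes at 0.26. The 4 of 8 mesoderm markers in the table summed to 7.94 and 11.1 FPKM with dTAG13 and 4.77 and 3.70 with DMSO. In dTAG13 replicate 1 the whole mesoderm sum came from Hand1, the 1 mesoderm marker in the table not listed at 0 there. Hand1 rose with dTAG13 by 1.195 (adjusted p = 0.0149). The 3 of 6 trophoblast markers summed to 2.64 and 15.8 with dTAG13 and 6.52 and 5.99 with DMSO, and the 5 of 8 2-cell-like markers to 35.3 and 8.58 with dTAG13 and 2.85 and 11.6 with DMSO. The trophoblast and 2-cell-like sums overlapped between the groups. The 2-cell-like sum was higher in dTAG13 replicate 1 than in replicate 2, although its markers Dux and Usp17lc were listed at 0 in replicate 1. The endoderm markers Gata4 and Gata6, the neural marker Pax6 and the mesoderm markers Kdr, Mixl1 and Tbx6 were listed at 0 in dTAG13 replicate 1. So were the trophoblast markers Eomes and Krt7. The part of such cells in the results was not tested.

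For each of the 7 genes, the 2 tested genes most like it over the 12 libraries were taken by Pearson's r of log2(FPKM + 1). The libraries share groups, and dTAG13 replicate 1 is an extreme point for 5 genes, so r is a description without a test. They were Zfp874a (0.98) and Fam216a (0.98) for Hormad1, Rhobtb3 (0.96) and Atp7a (0.96) for Sycp3, and Mkln1 (0.97) and Lca5 (0.97) for Ddx4. They were Rbm18 (0.97) and Aasdh (0.97) for Mael, 6820431F20Rik (0.93) and Rnf17 (0.93), a Tudor domain gene of male germ cells, for Stk31, Mdga1 (0.98) and Fzd6 (0.97) for Tex101, and Slc4a8 (0.98) and Mdga1 (0.97) for Dpep3. Tex101 and Dpep3 therefore shared Mdga1. Without dTAG13 replicate 1, Zfp874a stayed with Hormad1, 6820431F20Rik with Stk31, Mdga1 with Tex101 and Slc4a8 with Dpep3. Both neighbours of Sycp3 (then Skil, 0.99, and Xrn1, 0.99), of Ddx4 (Ccdc88a, 0.98, and Tmx1, 0.98) and of Mael (Mpzl1, 0.98, and Mall, 0.98) were other genes.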

How the data were processed

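Per the labels, polyA-enriched RNA of sorted PGCLCs was sequenced in 6 groups of 2 libraries. Per the submitters' processing notes, FastQC 0.10.1, Trim Galore 0.6.3, cutadapt, STAR 2.7.6a, Cufflinks 2.2.1 and mm10 were used. The deposited table holds FPKM by the authors for 12955 genes, each value carrying an added 1. That 1 was inferred from the digits (90.1% of values from 1.1 to 2 have 7 or more digits, against 0% from 2 to 10) and subtracted. Summed FPKM ran from 550230 to 673435 per library, and depth is unknown.

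The 12059 genes that reached 1 FPKM in 2 or more libraries entered limma 3.58.1 (R 4.3.3), fitted to log2(FPKM + 1) with a mean-variance trend, 1 model for all 6 groups (residual df 6, prior df 3.86) and Benjamini-Hochberg adjustment over all genes tested. The code was checked on simulated data. Members and gene lists were chosen with earlier results of these data known, so no list is independent evidence of its direction. Named genes were the 7 members, Tex10, up to 3 changed genes per list and direction (or, with none for a list, its 2 most abundant) and the 2 genes most like each member. Hormad2, the genes named for overlapping a member or for being listed at 0, and the markers named beside a sum were chosen by their position or values. Of the listed genes, 4 were matched through RefSeq synonyms. Counts on lists of related genes and likeness without D2_dTAG replicate 1, and counts over the 5 members at 1 FPKM or more in all 12 libraries, were added after seeing the data. Alternatives covered the pseudocount, the filter on low values, a replicate block, fits of only the compared groups, scaling by median ratios and leaving out each library. Gene positions come from GENCODE M21 and promoters from RefSeq (GRCm38.p6). Python 3.11.15, pandas 2.3.3, numpy 2.4.6 and matplotlib 3.10.9 were used.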

Additional observations from a re-analysis of the deposited data

How the results depend on the processing

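Over the 7 genes and 6 comparisons, 224 of 246 values under other settings kept direction and side of the threshold, 17 newly passed, 5 no longer passed and 0 turned. With a library left out, 186 of 231 kept both, 17 newly passed, 16 no longer passed and 12 turned. Counts of changed genes with each compared library, or D2_dTAG replicate 1, left out ran from 1 to 1692 (OE, day 2), 18 to 3046 (OE, day 6), 2 to 1339 (difference of OE effects), 202 to 7262 (dTAG13), 1138 to 6286 (day 6 over day 2, EV) and 1932 to 7096 (day 6 over day 2, OE), against 102, 448, 28, 1473, 2863 and 3890 from all libraries. The upper ends come from leaving out D2_dTAG replicate 1, or for dTAG13 replicate 2 of that pair. Leaving out a compared library leaves 1 in its group, so such a fit takes the spread from the other groups. With only the groups compared the counts were 1032, 3429, 1172, 0, 5395 and 7549. The 0 for dTAG13 in limma came with 1258 genes at an unadjusted p below 0.05. Under median-ratio scaling the counts were 171 for OE at day 2 and 49 for the difference. The causes were not tested.

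Log2 changes that turned with a library left out ranged from -0.30 to 0.22 (Ddx4) and -0.30 to 0.17 (Mael) for OE at day 2 and from -0.0591 to 0.20 (Stk31) for OE at day 6. With dTAG13 they ranged from -0.86 to 1.33 (Sycp3), -0.49 to 0.25 (Ddx4) and -0.27 to 1.93 (Mael), and between the days in EV from -0.26 to 0.0115 (Hormad1) and -0.15 to 0.29 (Stk31). Replicate-numbered libraries share only a number: deviations of same-numbered libraries correlated at -0.13 to 0.25 between groups. With the replicate block the counts were 98, 372, 21, 1349, 2741 and 3777, and Hormad1 in OE between the days was the 1 member call lost. Tex101 did not reach 5 FPKM in 2 libraries, so the stricter filter gave no value for it. With 2 libraries a group and unknown depth, differences of genes below 1 FPKM are the least certain.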
